A study of Mus musculus with 28 samples.

Results

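Loss of Fcgr2b was compared with the wild-type genotype in macrophages sorted from mouse kidneys. The comparison took every sorted macrophage library whose labels gave the genotype FcR2b-/- (3 libraries) or WT (3 libraries), which is 6 of the 28 libraries of the series and 6 of its 12 macrophage libraries. All of these mice were females on the C57BL/6 background, littermates of 7 to 9 months of age, with no treatment named. The wild-type group carried neither mutation, the Fcgr2b-/- group was homozygous for the Fcgr2b mutation alone, and the 6 other macrophage libraries came from Rhbdf2-/- mice (3) and from Fcgr2b-/-Rhbdf2-/- double mutants (3). Kidneys were digested with collagenase B, and cells with the surface phenotype CD45+F4/80hiCD11b+Ly6G-Ly6C- were sorted straight into lysis buffer before cDNA was made with the SMART-Seq v4 kit. The mutation is in the germline and so is not limited to macrophages, and a gate on F4/80 and CD11b without a kidney residency marker can hold both resident and blood-derived cells.

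Fcgr2b encodes Fc gamma receptor IIB, the inhibitory Fc receptor for immunoglobulin G, whose cytoplasmic motif recruits phosphatases that damp signals from the B cell receptor and from the activating Fc gamma receptors of myeloid cells. Mice without it on the C57BL/6 background are known to develop lupus-like autoantibodies and immune complex glomerulonephritis with age. Rhbdf2 encodes iRhom2, which brings the protease ADAM17 to maturity in myeloid cells, and ADAM17 releases TNF and ligands of the EGF receptor from the cell surface.

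Promoters are shown for 4 called genes of the antigen presentation, interferon, Fc receptor and lysosome groups, because each holds letters of a textbook binding motif. Sequences are RefSeq's, build GRCm38.p6, the 250 bases before the annotated start, 5′ to 3′ on the strand of the gene, with the matched letters in capitals. H2-Eb1, the beta chain of the MHC class II molecule I-E (chr17:34305617-34305866, plus strand), fell in Fcgr2b-/- macrophages and holds GATTGG, the inverted CCAAT letters known as the Y box, and once more its complement CCAATC. Irgm2, an interferon-inducible GTPase (chr11:58214727-58214976, plus strand), and Fcgr4, an activating Fc gamma receptor (chr1:171018676-171018925, plus strand), fell too and hold the interferon-stimulated response element, searched as GAAA, any pair of bases and GAAA again. Ctsd, the lysosomal protease cathepsin D (chr7:142387828-142388077, minus strand), rose and holds TCACGTGA, the core of the element shared by lysosomal genes.
H2-Eb1: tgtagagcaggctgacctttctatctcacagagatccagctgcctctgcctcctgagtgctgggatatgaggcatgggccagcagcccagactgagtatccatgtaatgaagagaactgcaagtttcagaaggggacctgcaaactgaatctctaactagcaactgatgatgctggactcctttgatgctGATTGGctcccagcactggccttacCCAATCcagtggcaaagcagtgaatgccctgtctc
Irgm2: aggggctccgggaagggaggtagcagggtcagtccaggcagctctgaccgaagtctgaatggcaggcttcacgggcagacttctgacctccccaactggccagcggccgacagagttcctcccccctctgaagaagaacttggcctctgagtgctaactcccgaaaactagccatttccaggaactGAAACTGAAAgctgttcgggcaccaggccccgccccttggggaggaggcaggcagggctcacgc
Fcgr4: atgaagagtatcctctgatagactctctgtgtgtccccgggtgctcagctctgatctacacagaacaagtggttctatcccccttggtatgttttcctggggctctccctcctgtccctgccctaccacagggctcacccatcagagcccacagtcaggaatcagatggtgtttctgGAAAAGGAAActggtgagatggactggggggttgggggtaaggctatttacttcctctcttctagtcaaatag
Ctsd: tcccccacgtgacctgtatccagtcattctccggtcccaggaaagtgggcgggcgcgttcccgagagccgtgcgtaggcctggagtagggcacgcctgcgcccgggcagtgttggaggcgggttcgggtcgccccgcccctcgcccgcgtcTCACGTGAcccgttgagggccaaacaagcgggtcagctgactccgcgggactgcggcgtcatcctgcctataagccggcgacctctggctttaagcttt
Each motif was searched on both strands of these windows, and 629 of the 844 listed genes had a window. The interferon-stimulated response element was present for 13 of 26 measured genes of a type I interferon list and for 9 of 14 of an interferon gamma list, against 3.46% of all 27025 genes with a window. GATTGG was present for 7 of 9 genes of MHC class II presentation, against 16.6% of all genes, but also for 18 of 26 proliferation genes, a list that moved the opposite way. TCACGTGA was present for 4 of 26 lysosomal genes, against 0.907% of all genes. Of the motif holders on the type I and gamma interferon lists, 4 of 13 and 5 of 9 were called, against 52.8% of all 10523 genes tested. For GATTGG 6 of 7 class II and 18 of 18 proliferation genes were called, and for TCACGTGA 3 of 4 lysosomal genes. A match is a description of letters and not of a bound site.

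Depth was even, with 30846258 to 34869542 reads in the listed genes of the 6 libraries as recovered from the deposited values. One read was worth 0.0277 to 0.0303 CPM (reads scaled to the authors' effective library size), so that 3 reads, the limit that a count of 0 allows, lay between 0.0832 and 0.0908 CPM. A value of 0.03 CPM stands for 0 reads. Defining macrophage markers were high in both groups. Csf1r, the receptor for the macrophage growth factor CSF1, was at 3161, 3207 and 3466 CPM in the 3 wild-type libraries (replicates 1, 2 and 3, in that order throughout) and at 3093, 2821 and 3423 CPM in the 3 Fcgr2b-/- libraries. Emr1, which encodes the sorting marker F4/80, was at 2447, 2323 and 3283 CPM in wild-type and 2139, 1605 and 2487 CPM in mutant libraries, and neither gene passed the test (limma adjusted p = 0.706 and 0.136). For Emr1 a fall passed it under quantile normalization (log2 -0.67), sample quality weights (-0.37) and a library scale without genes of tubule, B cells and mitochondria (-0.48). Ptprc, which encodes the sorting marker CD45, fell by 0.69 ± 0.20 (SE; all changes are on the log2(CPM + 1) scale) at adjusted p = 0.0126, a call lost without Fcgr2b-/- replicate 3. The labels do not say whether the 3 libraries of a group came from separate mice, so the p-values measure the spread between these libraries.

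Libraries within a group were not equally close, and pairs of Fcgr2b-/- libraries differed with a mean chi-square per gene of 85.0 to 164.6. Wild-type replicate 3 differed from replicates 1 and 2 with a mean chi-square per gene of 251 and 179.8, where replicates 1 and 2 differed with 29.9, and no pair of libraries in any group agreed within sampling noise. Its summed level of loop, distal tubule and collecting duct markers was 2276 CPM, against 9679 and 7325 CPM in replicates 1 and 2, while its immunoglobulin genes summed to 4588 CPM against 1584 and 1175 CPM. Mitochondrially encoded genes took 3.96%, 3.07% and 1.23% of the wild-type libraries and 0.94%, 1.06% and 0.721% of the Fcgr2b-/- libraries. Rhbdf2-/- replicate 3 also differed from replicates 1 and 2 of its group (77.8 and 76.0), a pair that differed with 27.0. In the wild-type and Rhbdf2-/- groups the closer pair has titles ending in letters, and all other macrophage titles end in numbers. Immediate early genes summed to 6725 and 5751 CPM in replicate 3 of these groups, against 2681 to 3319 CPM in the letter-titled libraries. The labels give no meaning for the letters, and the part of this split was not tested. Values without wild-type replicate 3 are given where they end or make the call of a named gene, or move a list's median or a count of 5 or more by over 1.5 times.

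The mutated gene was read first. Fcgr2b was at 539, 540.4 and 715 CPM in wild-type and 287, 256 and 382 CPM in Fcgr2b-/- macrophages, a change of -0.96 ± 0.16 on the log2 scale (adjusted p = 4.93e-04). Every mutant library was below every wild-type library, yet transcripts remained in each, and since the labels do not give the deleted part, a gene-level value does not check the genotype. Rhbdf2 was at 16.2, 21.0 and 25.0 CPM in wild-type and 43.3, 30.7 and 25.2 CPM in mutant libraries and rose by 0.63 ± 0.21 (adjusted p = 0.0248), a call that was lost without wild-type replicate 1 or 2 or Fcgr2b-/- replicate 1, in a fit of the 6 libraries alone (adjusted p = 0.0536) and with a library scale without genes of tubule, B cells and mitochondria (0.53, adjusted p = 0.0628).

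Across all 10523 genes, 2547 were higher (24.2%) and 3004 lower (28.5%) in Fcgr2b-/- macrophages at a limma adjusted p below 0.05, so 52.8% of genes changed, and for 6156 genes (58.5%) the groups of 3 did not overlap. The authors' deposited table calls 5455 genes at FDR below 0.05, 5369 of them shared with the same sign. With calls this widespread, each gene group is read against these shares. The median change over all genes was -0.09, and it moved to -0.19 with a library scale computed without genes of tubule, B cells and mitochondria, which left 2097 higher and 3281 lower.

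**Figure D1:**
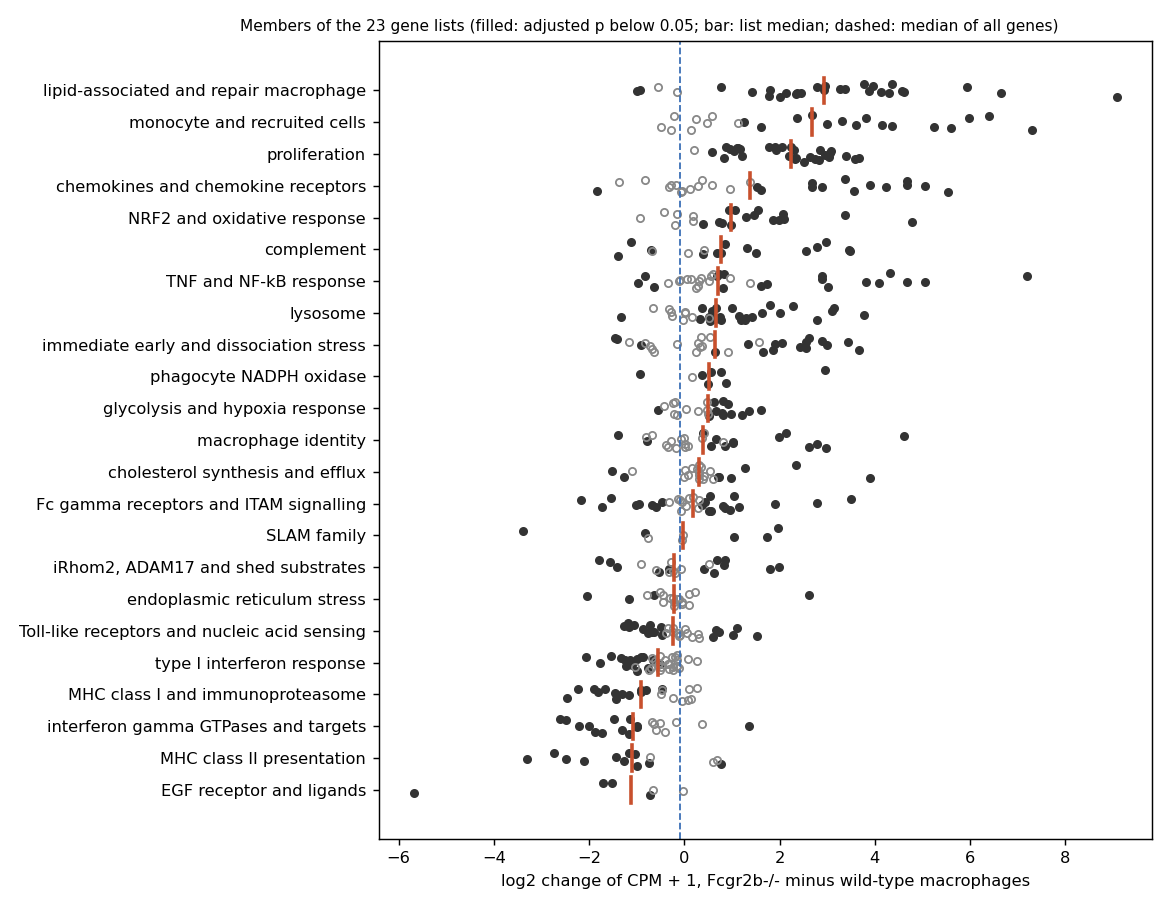
Log2 change of CPM + 1 (x axis) for each measured member of 23 gene lists (rows, ordered by median) between Fcgr2b-/- and wild-type macrophages, 3 libraries each. Filled points passed adjusted p below 0.05, open points did not, orange bars are list medians and the dashed line is the median of all genes (-0.09). Medians run from 2.94 for the lipid-associated and repair list to -1.12 for the EGF receptor and ligand list.

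The most marked group of rises was that of lipid-associated and repair macrophages, of whose 29 measured genes 25 rose and 2 (Pdgfb and Ch25h) fell, with a median change of 2.94. Gpnmb, a transmembrane glycoprotein of lipid-laden phagocytes, was at 0.615, 0.418 and 1.72 CPM in wild-type and 565, 2850.5 and 626 CPM in Fcgr2b-/- libraries, a rise of 9.09 ± 0.99 (adjusted p = 2.79e-05). It had the largest rise of all genes tested, and Fcgr2b-/- replicate 2 was the highest mutant library by far. Fabp5, a fatty acid carrier, was at 1.26, 1.44 and 1.12 CPM in wild-type and 157, 345 and 214 CPM in mutant libraries and rose by 6.65 ± 0.80 (adjusted p = 5.17e-05). Trem2, a lipid-sensing receptor of phagocytes, was at 28.1, 22.3 and 27.3 CPM in wild-type and 511, 629 and 871 CPM in mutant libraries, 4.61 ± 0.34 higher (adjusted p = 2.64e-06). For all 3 genes the lowest mutant library stood far above the highest wild-type library. Spp1, which encodes osteopontin, was already abundant in wild-type macrophages at 935, 665 and 241 CPM and reached 7858, 7837 and 9384 CPM (rise of 3.97 ± 0.54, adjusted p = 1.08e-04). The wild-type spread in Spp1 had the order of the loop and distal tubule sums, lowest in replicate 3, and tubule cells are known to express it. Apolipoproteins rose as well, Apoc2 from 0.585, 0.418 and 0.908 to 73.0, 127 and 183 CPM (6.21 ± 0.52) and Apoe, the main lipid carrier of macrophages, from 732, 674 and 866 to 2029.6, 3631 and 4858 CPM (2.13 ± 0.26). Igf1, a growth factor made by repair macrophages, was at 76.4, 79.4 and 80.3 CPM in wild-type and 576, 597 and 660.3 CPM in mutant libraries (rise of 2.94 ± 0.16, adjusted p = 6.22e-07). For each of these genes the groups did not overlap, which for Gpnmb, Fabp5 and Apoc2 was a condition of their choice as largest rises.

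Lysosomal genes rose with them, 23 of 33 measured against 1 that fell (median 0.66; 7 fell and the median was 0.41 under quantile normalization). Ctsd, one of the printed promoters, was at 623, 561 and 459.5 CPM in wild-type and 4542, 9844 and 9332 CPM in Fcgr2b-/- libraries, a rise of 3.78 ± 0.38 (adjusted p = 1.64e-05). Grn, the lysosomal regulator progranulin, was at 797, 806 and 926 CPM in wild-type and 3021, 4705 and 4895 CPM in mutant libraries (2.29 ± 0.20, adjusted p = 7.47e-06), and Lipa, the acid lipase that frees cholesterol from esters, rose by 1.41 ± 0.11. Fcgr2b-/- replicate 1 had the lowest Ctsd of its group and was still above every wild-type library. Of 23 genes of cholesterol synthesis and efflux 6 rose, a share near the 24.2% of all genes, and 2 fell. The median was 0.32, with 0.14 without Fcgr2b-/- replicate 1 and 0.51 without replicate 2. Nr1h3, the oxysterol receptor LXR alpha, was at 9.79, 6.57 and 4.87 CPM in wild-type and 143, 142 and 76.3 CPM in mutant libraries (rise of 3.90 ± 0.39) and its target Abca1, a cholesterol exporter, rose by 2.34 ± 0.34 from 40.6, 39.2 and 27.6 to 118, 201 and 254 CPM. Dhcr7, the last enzyme of cholesterol synthesis, fell by 1.51 ± 0.13 (adjusted p = 5.41e-06).

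**Figure D2:**
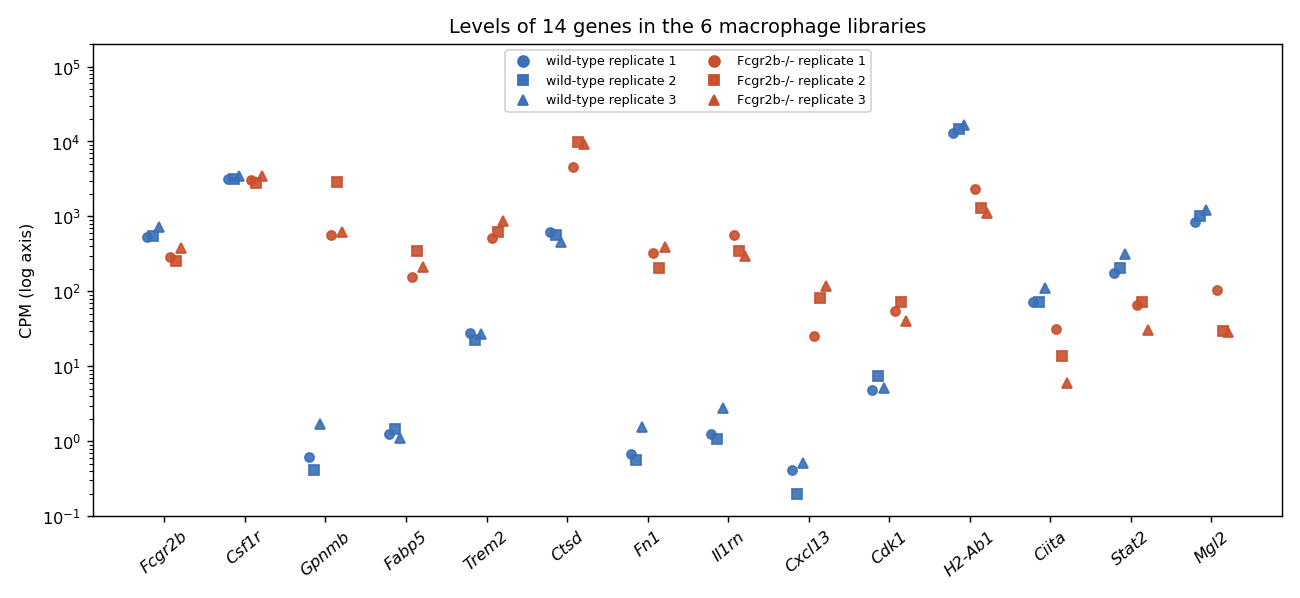
CPM on a log axis (y) of 14 genes in each of the 3 wild-type (blue) and 3 Fcgr2b-/- (orange) macrophage libraries, one marker shape per replicate. Gpnmb lies between 0.418 and 1.72 CPM in wild-type and between 565 and 2851 CPM in Fcgr2b-/- libraries, H2-Ab1 lies lower in all 3 Fcgr2b-/- libraries, and Csf1r overlaps.

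Among 23 genes typical of monocytes and recruited cells 15 rose and none fell, with a median of 2.68. Fn1, fibronectin, was at 0.673, 0.557 and 1.57 CPM in wild-type and 324, 206 and 389 CPM in Fcgr2b-/- libraries, a rise of 7.30 ± 0.83 (adjusted p = 3.50e-05). Clec4e, the receptor Mincle, was close to absent in wild-type libraries at 0.0885, 0.03 and 1.24 CPM and stood at 126, 102 and 114 CPM in the mutants (6.39 ± 0.73, adjusted p = 3.82e-05). Hp, haptoglobin, rose by 5.97 ± 0.63 from 0.0593, 0.03 and 0.575 to 70.4, 87.6 and 66.4 CPM. In all 3 genes wild-type replicate 3 was the highest wild-type library and remained far below every mutant one. Itgam, the sorting marker CD11b, was at 123, 127 and 223 CPM in wild-type and 1046, 1150.5 and 1442 CPM in mutant libraries (rise of 2.98 ± 0.28, adjusted p = 1.39e-05), and Lyz2, lysozyme, rose by 2.78 ± 0.28 to 20609, 20087 and 31043 CPM. The macrophage identity list as a whole showed 12 rises and 2 falls (Cd81 and Axl) among 28 genes, beside 24.2% and 28.5% of all genes. Its median was 0.38 (5 falls and a median of 0.21 under quantile normalization, and a median of 0.24 without Fcgr2b-/- replicate 2). The other genes among the 12 largest rises were Adam8, a surface metalloprotease (6.69 ± 0.53), Capg, an actin capping protein (6.00 ± 0.44), Anxa1, annexin A1 (5.94 ± 0.38), and Ms4a4a, a tetraspanning surface protein of macrophages (5.87 ± 0.59). Groups without overlap were a condition for a place among these 12. With linear modelling of recovered reads by voom the adjusted p was 0.0682 for Gpnmb, 0.130 for Clec4e and 0.0752 for Hp, so these calls were lost there, with changes of 10.42, 10.06 and 10.06. The sizes for Clec4e and Hp rest on a pair of wild-type libraries at or near 0 reads and on the pseudocount.

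Neutrophil and mast cell markers moved with these genes. Of 22 such markers 4 were measured and 3 rose: Trem1 from 0.03, 0.0578 and 0.151 to 25.1, 41.5 and 28.7 CPM (4.89 ± 0.28), Lcn2 from 0.760, 0.169 and 0.03 to 41.8, 52.2 and 36.1 CPM (5.09 ± 0.45) and Mmp8, and the list summed to 72.8 to 105.5 CPM in wild-type and 175 to 202 CPM in Fcgr2b-/- libraries. Lcn2 is also a gene of injured tubule and Trem1 of monocytes. Cells were sorted as Ly6G-, and Ly6g was not among the measured markers. The part of neutrophils in the rises above was not tested.

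Inflammatory mediators were divided. Among 32 genes of the TNF and NF-kB response 15 rose and 3 (Nfkbie, Rel and Traf1) fell, with a median of 0.71. Of all genes 24.2% rose and 28.5% fell. Il1rn, the secreted antagonist of the interleukin 1 receptor, was at 1.26, 1.08 and 2.81 CPM in wild-type and 558, 342 and 294 CPM in mutant libraries (rise of 7.20 ± 0.45, adjusted p = 1.18e-06). Tnfaip3, the feedback inhibitor A20, rose by 1.74 ± 0.26. Tnf itself was at 16.4, 18.7 and 34.6 CPM in wild-type and 36.3, 27.1 and 33.4 CPM in mutant libraries, groups that overlapped, and its difference of 0.52 ± 0.33 did not pass (adjusted p = 0.203). Without wild-type replicate 3, the highest of its group, the Tnf difference was 0.83 (adjusted p = 0.0473), and with sample quality weights 0.66 (adjusted p = 0.0352). Of 27 chemokines and chemokine receptors 13 rose and 1 (Cxcl12) fell, with a median of 1.37. Cxcl13, a chemokine for B cells, was at 0.410, 0.196 and 0.514 CPM in wild-type and 25.1, 82.0 and 118 CPM in mutant libraries (5.54 ± 0.43, adjusted p = 3.65e-06), and Cxcl1, a chemokine for neutrophils, at 0.235, 0.779 and 1.88 CPM in wild-type and 54.2, 72.0 and 55.9 CPM in mutant libraries (5.05 ± 0.47). The monocyte chemokines Ccl2, Ccl8 and Ccl9 rose by 2.89 ± 0.41, 4.67 ± 0.48 and 3.56 ± 0.17. No mutant library overlapped a wild-type library for these chemokines.

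Immediate early genes, which also respond to tissue digestion, had 14 rises and 3 falls among 31 genes (median 0.65), beside 24.2% and 28.5% of all genes. Fos was at 91.0, 134 and 467 CPM in wild-type and 1887, 1759.6 and 2169 CPM in mutant libraries (rise of 3.43 ± 0.64, adjusted p = 9.43e-04), and wild-type replicate 3 lay between its group and the mutants. Fosl2 rose by 3.66 ± 0.29. The list summed to 2681, 3058 and 6725 CPM in wild-type and 8079, 7415 and 9274 CPM in Fcgr2b-/- libraries, and the part of digestion in the mediators above was not tested. Among 17 complement genes 11 rose and 3 fell, with a median of 0.76, and 7 rose with a median of 0.33 under quantile normalization. Cfp, properdin, was at 54.7, 66.0 and 100.5 CPM in wild-type and 667, 765 and 1019.8 CPM in mutant libraries (3.48 ± 0.31), C3 rose by 3.46 ± 0.38 and C4b by 2.78 ± 0.47.

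The Fc receptor system changed in its members unequally, with 13 of 31 genes of Fc gamma receptors and ITAM signalling higher and 8 lower (median 0.19; under quantile normalization -0.02, with 8 higher; 0.10 without Fcgr2b-/- replicate 2 and 0.29 without replicate 1). Over all genes 24.2% were higher and 28.5% lower, so the falls were near the general share. Fcgr4, the activating receptor among the printed promoters, was at 366, 429 and 806 CPM in wild-type and 143, 166 and 146 CPM in Fcgr2b-/- macrophages, a change of -1.72 ± 0.26 (adjusted p = 2.33e-04). Fcgr1, the high-affinity receptor, was at 311, 335 and 506 CPM in wild-type and 532, 580.4 and 555 CPM in mutant libraries and rose by 0.57 ± 0.17 (adjusted p = 0.0162). Fcgr3, an activating low-affinity receptor, was at 565, 602 and 779.8 CPM in wild-type and 682, 953 and 1272 CPM in mutant libraries with overlapping groups (0.55 ± 0.20, adjusted p = 0.037). The calls for Fcgr1 and Fcgr3 were lost under quantile normalization (0.20 and 0.12) and without wild-type replicate 1 or 2 or Fcgr2b-/- replicate 2, and for Fcgr3 also without Fcgr2b-/- replicate 3 and in a fit of the 6 libraries alone (adjusted p = 0.1002). Fcer1g, the shared signalling chain, did not pass (0.30 ± 0.17, adjusted p = 0.144), was -0.02 under quantile normalization, and passed without wild-type replicate 3 (0.49, adjusted p = 0.00584) and with sample quality weights (0.42, adjusted p = 0.00613). Tyrobp, or DAP12, a separate ITAM adaptor, rose by 0.85 ± 0.13. Among further receptors Fcrls rose by 3.50 ± 0.33 and the inhibitory Clec12a by 1.91 ± 0.26, while the inhibitory Siglece fell by 1.01 ± 0.15. Fcgr4, Fcgr3 and Fcer1g lie 0.056, 0.090 and 0.263 Mb from Fcgr2b. For them, as for the other genes beside it, strain-derived sequence and loss of Fcgr2b cannot be told apart. In whole kidney Fcgr4, Fcgr3 and Fcer1g were higher in Fcgr2b-/- mice, by 1.72, 2.89 and 2.51. The leukocyte gene Ptprc was higher there too, by 1.63, and the part of leukocyte number was not tested.

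In the iRhom2 and ADAM17 list 7 of 20 genes rose and 5 fell, beside 24.2% and 28.5% of all genes, with a median of -0.21. Without wild-type replicate 1 or 2 there were 4 or 3 rises and 3 falls, with 3 falls also without Fcgr2b-/- replicate 3. The median was -0.07 without Fcgr2b-/- replicate 1, -0.09 without wild-type replicate 3 and -0.14 without wild-type replicate 2. Adam17, the sheddase itself, was at 211, 198 and 245 CPM in wild-type and 449, 346 and 397 CPM in mutant libraries (rise of 0.86 ± 0.12, adjusted p = 1.38e-04), with no overlap. Rhbdf1, which encodes the related iRhom1, fell by 1.41 ± 0.21, and Jag1, a Notch ligand, rose by 1.80 ± 0.24. Of 6 measured genes of the EGF receptor family and its ligands and regulators 4 fell and none rose (median -1.12), and 2 fell without wild-type replicate 1. One of them is the tubule gene Egf, and the list summed to 1372, 1047 and 359 CPM in wild-type libraries, in the order of their loop and distal tubule sums; the part of tubule was not tested. Egfr was low, at 5.53, 4.55 and 2.24 CPM in wild-type and 2.97, 2.39 and 1.21 CPM in mutant libraries, and did not pass (-0.66 ± 0.38, adjusted p = 0.16), except with sample quality weights (-0.77, adjusted p = 0.0369).

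Antigen presentation genes fell. Of 14 measured genes of MHC class II presentation 10 fell and 1, the protease Ctss, rose (median -1.11). H2-Ab1, the beta chain of I-A, was at 12899, 14776 and 16486 CPM in wild-type and 2323, 1285 and 1103 CPM in Fcgr2b-/- macrophages, a change of -3.30 ± 0.41 (adjusted p = 6.36e-05). H2-Eb1 was at 17354, 18029 and 24526 CPM in wild-type and 10646, 5898 and 6282 CPM in mutant libraries and fell by 1.43 ± 0.28 (adjusted p = 0.00117). Ciita, the class II transactivator, was at 71.6, 72.9 and 110.3 CPM in wild-type and 31.7, 13.7 and 5.98 CPM in mutant libraries and fell by 2.49 ± 0.42 (adjusted p = 4.37e-04). All wild-type libraries were above all mutant libraries for these genes. H2-Ob, part of the DO modulator that B cells also express, fell by 2.74 ± 0.18. For MHC class I and the immunoproteasome 13 of 21 genes fell and none rose (median -0.90), and 2 rose without wild-type replicate 3. H2-K1 was at 2441, 2596 and 2634 CPM in wild-type and 846.87, 771 and 575 CPM in mutant libraries and fell by 1.82 ± 0.16, and the peptide transporter Tap1 fell by 2.23 ± 0.30.

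Interferon lists moved in part. In the type I interferon list 15 of 39 genes fell, none rose and 24 did not pass, with a median of -0.55. Its share of called genes was below the 52.8% of all genes, where 28.5% fell. Without wild-type replicate 3 there were 10 falls, and the median was -0.25 without Fcgr2b-/- replicate 3 and -0.26 with sample quality weights. Stat2, a transcription factor of the type I response, was at 175, 205 and 313 CPM in wild-type and 66.0, 71.6 and 30.3 CPM in mutant libraries and fell by 2.08 ± 0.29 (adjusted p = 1.31e-04). Oas2, a sensor of double-stranded RNA, was at 187, 237 and 188 CPM in wild-type and 58.9, 85.4 and 40.6 CPM in mutant libraries (-1.76 ± 0.25) and the antiviral GTPase Mx1 at 77.1, 94.4 and 123 CPM in wild-type and 47.5, 51.9 and 32.0 CPM in mutant libraries (-1.15 ± 0.22). The list summed to 3853, 4418 and 7097 CPM in wild-type and 3641, 4102 and 1992 CPM in Fcgr2b-/- libraries, so by summed level the groups overlapped. Of 20 interferon gamma GTPases and targets 12 fell and 1 rose (median -1.07), and 7 fell without Fcgr2b-/- replicate 3, while the median was -0.71 without wild-type replicate 3. Irgm2, among the printed promoters, was at 117, 124 and 246 CPM in wild-type and 67.3, 65.6 and 36.2 CPM in mutant libraries and fell by 1.48 ± 0.33 (adjusted p = 0.00295). Wild-type replicate 3 was the highest library for Stat2, Mx1 and Irgm2.

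Dendritic cell markers moved with these falls, 10 of 17 lower and 1 (Sirpa) higher with a median of -0.99, and 6 fell without replicate 3 of either group. Clec9a, the marker of cross-presenting dendritic cells, was at 30.7, 23.7 and 50.0 CPM in wild-type and 6.17, 1.32 and 0.302 CPM in mutant libraries (-3.62 ± 0.48, adjusted p = 9.16e-05). Their summed level was 1734 to 2455 CPM in wild-type and 950.3 to 1061 CPM in Fcgr2b-/- libraries. Mgl2, a lectin of both dendritic cells and macrophages, was at 856, 1021 and 1234 CPM in wild-type and 103, 29.4 and 29.0 CPM in mutant libraries and fell by 4.49 ± 0.47. B and plasma cell markers, which also carry class II genes, summed to 1543, 1421 and 3201 CPM in wild-type and 725, 526 and 516 CPM in mutant libraries. In bulk libraries fewer cells of a type and less RNA per cell cannot be told apart, and the part of these cells in the class II falls was not tested.

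All but 1 of the 31 proliferation genes rose and none fell (median 2.25). Cdk1, the mitotic kinase, was at 4.79, 7.32 and 5.14 CPM in wild-type and 54.8, 71.6 and 40.2 CPM in mutant libraries (rise of 3.05 ± 0.32, adjusted p = 2.20e-05). Birc5, survivin, rose by 3.39 ± 0.36 and Stmn1, a microtubule regulator, by 2.84 ± 0.27. Fcgr2b-/- replicate 3 was the lowest mutant library for Cdk1, still above all wild-type libraries. Of 22 glycolysis and hypoxia genes 11 rose and 1 fell (median 0.50), beside 24.2% and 28.5% of all genes. Pkm, pyruvate kinase, was at 395, 374 and 404 CPM in wild-type and 1221, 1187 and 1161 CPM in mutant libraries (1.60 ± 0.16, adjusted p = 1.66e-05), and Ldha, lactate dehydrogenase A, rose by 1.35 ± 0.13. The NRF2 and oxidative response list had 15 rises and no fall among 21 genes (median 0.98), among them Prdx1, a peroxidase, from 464, 457 and 594.28 to 1766, 1775 and 1974 CPM (1.87 ± 0.16) and the ferritin light chain Ftl1 (2.07 ± 0.20). The phagocyte NADPH oxidase list had 6 rises and 1 fall among 8 genes (median 0.52), and 3 rises with a median of 0.22 under quantile normalization. Hvcn1, the proton channel that sustains the oxidase, was at 27.7, 27.8 and 34.6 CPM in wild-type and 289.6, 202 and 233 CPM in mutant libraries (rise of 2.96 ± 0.17, adjusted p = 7.03e-07). Among 79 cytosolic ribosomal protein genes 61 rose and 4 fell (median 0.95), and 7 fell without wild-type replicate 3. All 12 mitochondrially encoded genes were lower in value and 10 of them passed the test (median -1.28). They summed to 35726, 27518 and 12986 CPM in wild-type libraries, in the order of the loop and distal tubule sums. The part of tubule was not tested. Of 84 nuclear respiratory chain genes 38 rose and 6 fell (median 0.32). Rises were 16 with a library scale without genes of tubule, B cells and mitochondria, and 21 under quantile normalization. Falls were 14 without wild-type replicate 3 (median 0.18) and 15 with sample quality weights.

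Toll-like receptors and nucleic acid sensors had 6 rises and 11 falls among 29 genes (median -0.23), but 8 of each without wild-type replicate 3 (median -0.10). Over all genes 24.2% rose and 28.5% fell. Endoplasmic reticulum stress genes had 1 rise and 3 falls among 19 (median -0.23), with 6 falls without Fcgr2b-/- replicate 2 and 7 under quantile normalization (median -0.37). Its median was -0.07 without wild-type replicate 3.

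Markers of tubule and of lymphocytes made up much of the list of largest falls. Of 22 measured loop, distal tubule and collecting duct genes 20 fell and 1 rose (median -2.30), and their summed level was 9679, 7325 and 2276 CPM in wild-type against 1287, 760.5 and 497 CPM in Fcgr2b-/- libraries, so that the groups did not overlap (exact two-sided permutation test, p = 0.1, the smallest that 3 against 3 libraries allow). Egf, made by the distal tubule, was at 1315, 1001 and 324 CPM in wild-type and 27.3, 10.4 and 8.82 CPM in mutant libraries (-5.68 ± 0.61, adjusted p = 2.53e-05), and Umod, uromodulin of the thick ascending limb, at 4570.1, 3334 and 972 CPM in wild-type and 749, 416 and 297 CPM in mutant libraries (-2.44 ± 0.67). Calb1, Wfdc15b, Tmem52b, Slc12a3 and Pgam2, which were among the 12 largest falls, were likewise lowest in replicate 3 among the wild-type libraries. They were lower still in every Fcgr2b-/- library, a condition of their choice as largest falls. The 1 member that rose, Atp6v0d2 (3.15 ± 0.52), encodes a proton pump subunit that macrophages and osteoclasts also express. Among 32 proximal tubule genes 16 fell and 1, Gatm, rose (median -1.21), but summed levels overlapped, at 4958, 2950 and 2077 CPM against 3288, 1516 and 1483 CPM. The number of falls was 6 without wild-type replicate 1 or Fcgr2b-/- replicate 3, 9 without wild-type replicate 2, 8 without Fcgr2b-/- replicate 2 and 24 without Fcgr2b-/- replicate 1, and Gatm lost its call without replicate 1 of either group or wild-type replicate 2, in a fit of the 6 libraries alone (adjusted p = 0.0713), with the library scale without tubule and B cell genes (0.31, adjusted p = 0.0940) and under quantile normalization (-0.01).

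**Figure D3:**
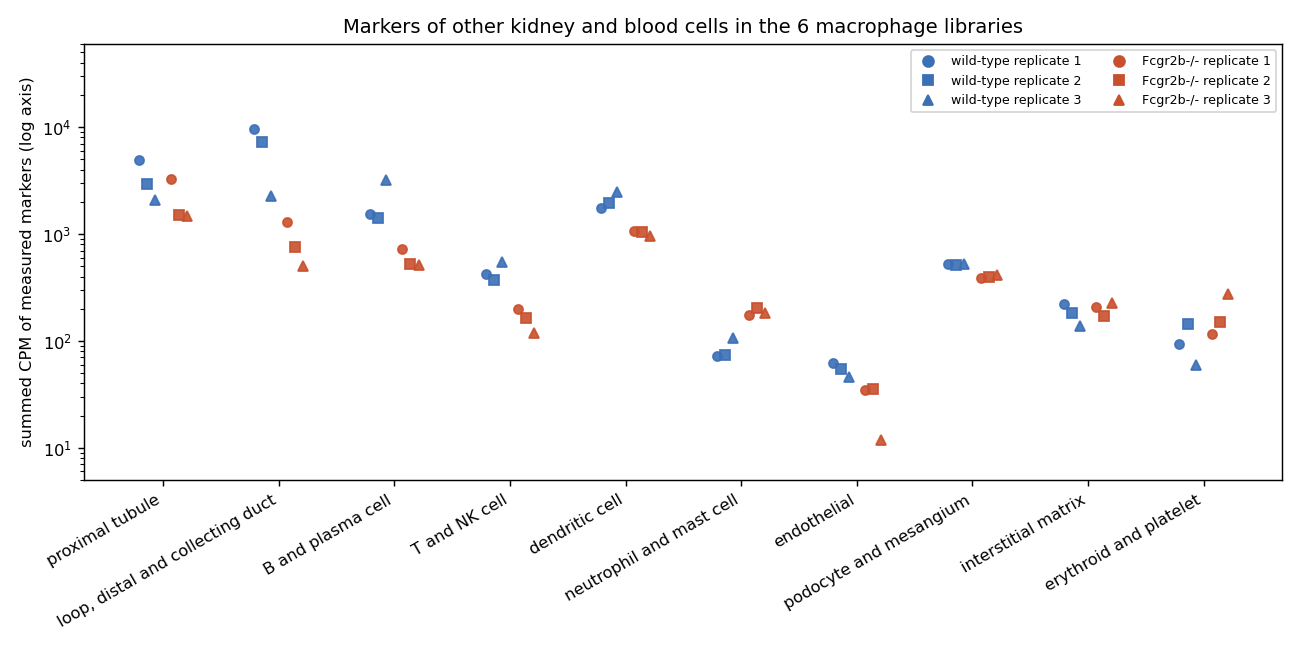
Summed CPM (log axis) of the measured markers of 10 other cell types in each of the 3 wild-type (blue) and 3 Fcgr2b-/- (orange) macrophage libraries, one marker shape per replicate. Loop, B, T, dendritic, endothelial and podocyte sums are lower in every Fcgr2b-/- library, neutrophil and mast cell sums are higher, and proximal tubule, matrix and erythroid sums overlap.

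Of 12 measured B and plasma cell genes 9 were lower and 2 (Sdc1 and Cd22) higher, with a median of -1.58. Igkc, the kappa light chain constant region, was at 272, 113 and 1346 CPM in wild-type and 2.00, 4.80 and 3.29 CPM in mutant libraries (-6.36 ± 0.84), and Igj, the joining chain of secreted antibody, at 115, 29.98 and 440.2 CPM in wild-type and 0.344, 2.11 and 0.815 CPM in mutant libraries (-5.89 ± 0.99). Among the 12 largest falls Igj and the kinase gene Camk2d were left without a call by voom (adjusted p = 0.145 and 0.272). Cd22, an inhibitory lectin best known in B cells, was at 21.3, 24.2 and 14.7 CPM in wild-type and 79.6, 81.1 and 75.3 CPM in mutant libraries and rose by 1.95 ± 0.28. Of 21 T and NK cell genes 2 fell (14 in a fit of the 6 libraries alone), one of them Cd4, which fell by 2.21 ± 0.26, and summed to 367.2 to 552 CPM in wild-type against 119 to 200.5 CPM in mutant libraries. Endothelial genes fell in 3 of 5 cases, and podocyte and mesangium genes fell in 3 of 5 and rose in 1. Itga8, an integrin of mesangium, fell by 3.14 ± 0.25, and erythroid and platelet genes had 1 rise among 5. Over all genes 24.2% rose and 28.5% fell. The 2 falls of T and NK cell genes lay below that share, and the erythroid and platelet rise lay near it. Of 18 injury markers of tubule 10 rose and 3 (Krt8, Krt7 and Itgb6) fell, and most of the risers (Spp1, Cd44, Vim, Anxa2, Anxa3, S100a6) are also genes of macrophages, while 6 interstitial matrix genes were measured, 3 higher and 1 lower. The part of other cells in the falls and rises was not tested.

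A pair of large falls belonged to neither group. Mmp13, collagenase 3, was at 981, 1336 and 1404 CPM in wild-type and 65.3, 72.8 and 20.6 CPM in mutant libraries (-4.70 ± 0.55, adjusted p = 4.38e-05). Camk2d, a calcium-dependent kinase, was at 51.1, 53.9 and 56.4 CPM in wild-type macrophages, and the Fcgr2b-/- libraries held 4, 1 and 1 of its reads (0.144, 0.0581 and 0.0602 CPM). The fitted change of -5.65 ± 1.01 rests on these few reads and on the pseudocount. In the double mutant libraries Camk2d was at 0.0900, 23.8 and 58.0 CPM, so 1 of those 3 shared the near absence. In whole kidney 1 of 4 wild-type libraries (0.286 CPM, the others 20.4 to 20.8) and 1 of 4 Fcgr2b-/- libraries (0.191 CPM, the others 27.0 to 53.7) had it too, so the near absence did not follow the Fcgr2b genotype there.

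Genes beside Fcgr2b formed a further set. The deposited positions place Fcgr2b at chr1:170960557-170976547 (mm10), and within 5 Mb of it 70 other genes were measured, of which 13 rose and 34 fell (47 of 70, against 52.8% of all genes). Ifi202b, an interferon-inducible member of the p200 cluster known to differ in expression between mouse strains, was at 0.585, 0.169 and 0.0906 CPM in wild-type and 151, 197 and 161 CPM in Fcgr2b-/- macrophages, a rise of 7.07 ± 0.16 (adjusted p = 1.05e-10). Pydc4, of the same cluster, had the largest fall of all, from 143, 149 and 177 to 0.629, 0.648 and 0.181 CPM (-6.74 ± 0.40, adjusted p = 7.03e-07). Its neighbours Gm4955 and Pyhin1 fell, with changes of -5.89 ± 0.33 and -2.46 ± 0.20, and Igsf9, an immunoglobulin superfamily gene, changed by -4.91 ± 0.18 from 124, 139.9 and 137 to 4.37, 2.98 and 3.14 CPM. For each of these genes the groups did not overlap, which for Ifi202b, Pydc4 and Igsf9 was a condition of their choice as largest rises or falls. The cluster's near-identical copies leave the split of reads among them uncertain.

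Among the SLAM receptors of leukocytes, which lie closer to Fcgr2b, 3 of 8 rose and 2 fell, beside 24.2% and 28.5% of all genes. Cd84 was at 149.9, 153 and 148 CPM in wild-type and 402, 479.7 and 667 CPM in mutant libraries (rise of 1.74 ± 0.17), and Slamf7, an activating receptor of phagocytes and plasma cells, fell by 3.39 ± 0.38 from 245, 214 and 348.01 to 47.0, 23.6 and 12.6 CPM. F11r, a junctional adhesion molecule, fell by 2.68 ± 0.37, and Nuf2, a kinetochore protein of dividing cells, rose by 3.18 ± 0.34.

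The libraries labelled double mutant are those of other mice whose labelled genotype holds the same mutation. Ifi202b was at 0.118, 0.122 and 0.191 CPM in the Rhbdf2-/- and 248, 243.5 and 253 CPM in the double mutant libraries, and Pydc4 at 146, 160.0 and 124 CPM and 2.18, 10.3 and 1.81 CPM. Both genes followed the Fcgr2b genotype in all 12 macrophage libraries without overlap. Strain-derived sequence beside the mutation and loss of Fcgr2b itself cannot be told apart in this design.

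**Figure D4:**
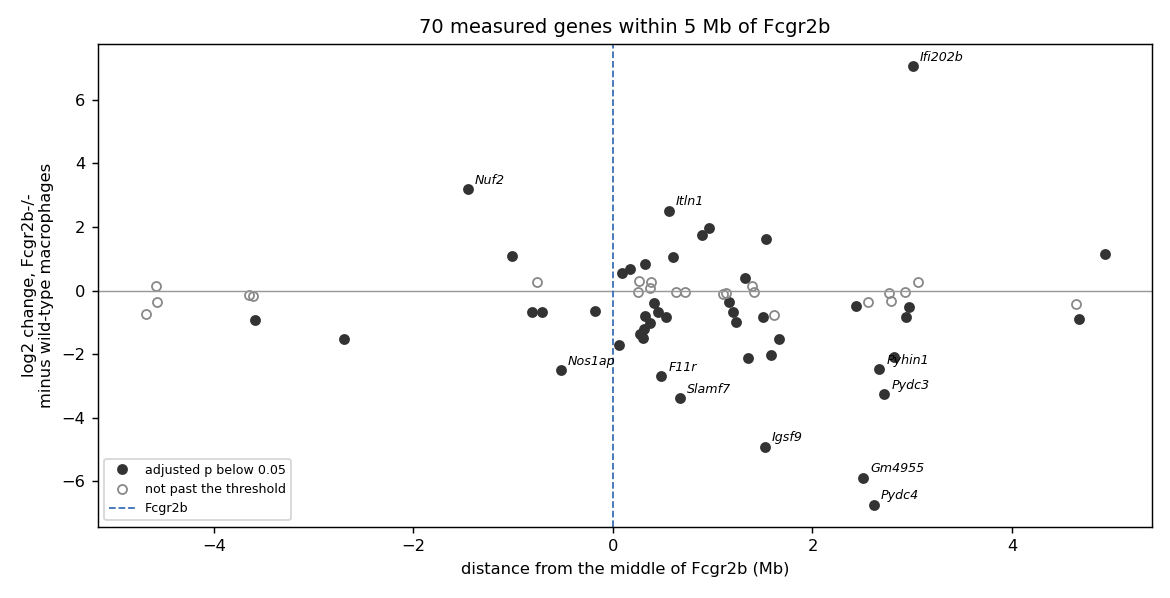
Log2 change between Fcgr2b-/- and wild-type macrophages (y) of 70 measured genes against their distance in Mb from the middle of Fcgr2b (x, 0 and dashed line). Filled points passed adjusted p below 0.05 (47 genes), and the extremes, Ifi202b at 7.07 and Pydc4 at -6.74, lie to the right of Fcgr2b.

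The mutation was then read on the Rhbdf2-/- background, in the libraries so labelled. The genotype labels of the 3 double mutant libraries name both genes, while their titles name the Rhbdf2 knockout alone. Rhbdf2 was at 13.4, 15.5 and 13.9 CPM in the libraries labelled Rhbdf2-/- and at 26.6, 21.6 and 18.1 CPM in those labelled double mutant, where it was no lower than in wild-type libraries (16.2, 21.0 and 25.0 CPM). Fcgr2b was at 612, 649 and 715 CPM and at 455, 479 and 550 CPM, a difference that did not pass (-0.41, adjusted p = 0.0923), and it was higher in the double mutant than in the Fcgr2b-/- libraries (0.70, adjusted p = 0.00789). Without the deleted parts these levels do not check the genotypes, and every value below compares libraries by their labels. Between double mutant and Rhbdf2-/- macrophages 968 genes were higher (9.2%) and 950 lower (9.03%), and the difference of the Fcgr2b effect between the pair of backgrounds, as an interaction term, was positive for 635 genes (6.03%) and negative for 620 (5.89%). Leaving out wild-type replicate 2 left 321 and 326 such genes, and leaving out Fcgr2b-/- replicate 2 left 422 and 366. The interaction subtracts the change between Fcgr2b-/- and wild-type libraries. Lists and genes picked for a rise in that change lean toward negative interactions by that choice, and those picked for a fall toward positive ones. The shares below are therefore not independent of the rises and falls above. Some lists that rose with Fcgr2b loss had negative interactions in more than the 5.89% of all genes: 13 of 29 lipid-associated and repair genes, 17 of 31 proliferation genes, 12 of 21 NRF2 genes (4 without wild-type replicate 2, 7 without Fcgr2b-/- replicate 2) and 40 of 79 ribosomal protein genes (22 without wild-type replicate 2). With sample quality weights 21 of the lipid-associated and 27 of the proliferation genes had one, and with voom 9 of the latter. Also above the 5.89% share were 7 of 27 chemokines and receptors (1 positive), 7 of 33 lysosomal genes (1 positive) and 6 of 22 glycolysis and hypoxia genes. The chemokine count was 11 without wild-type replicate 3 and 4 on the deposited log2 CPM. With sample quality weights it was 12, and the lysosomal count was 13. Above that share by few genes were 3 of 23 monocyte and recruited cell genes (1 positive), 4 of 32 TNF and NF-kB genes (2 positive) and 2 of 17 complement genes. Immediate early genes were near it with 2 of 31, and none of 8 NADPH oxidase genes had a negative interaction. Spp1 was at 7858, 7837 and 9384 CPM in Fcgr2b-/- libraries but at 766, 572 and 174 CPM in double mutant libraries (interaction -4.48, adjusted p = 0.00709). Gpnmb, at 475, 138.5 and 13.5 CPM in double mutant libraries, spread widely and its interaction did not pass (-3.41, adjusted p = 0.135). The type I interferon list, in which no gene rose with Fcgr2b loss alone, had positive interactions for 18 of 39 genes (10 without wild-type replicate 3, 11 without replicate 2), and its median was 0.63 between double mutant and Rhbdf2-/- macrophages. Positive interactions were found for 6 of 21 MHC class I genes, 3 of 14 class II genes and none of 20 interferon gamma genes. Mx1 was at 84.5, 99.4 and 66.6 CPM in Rhbdf2-/- and at 149.5, 108 and 138 CPM in double mutant libraries (interaction 1.81, adjusted p = 0.00743). Ifi202b kept its rise, with an interaction of 0.70 that did not pass (adjusted p = 0.065).

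**Figure D5:**
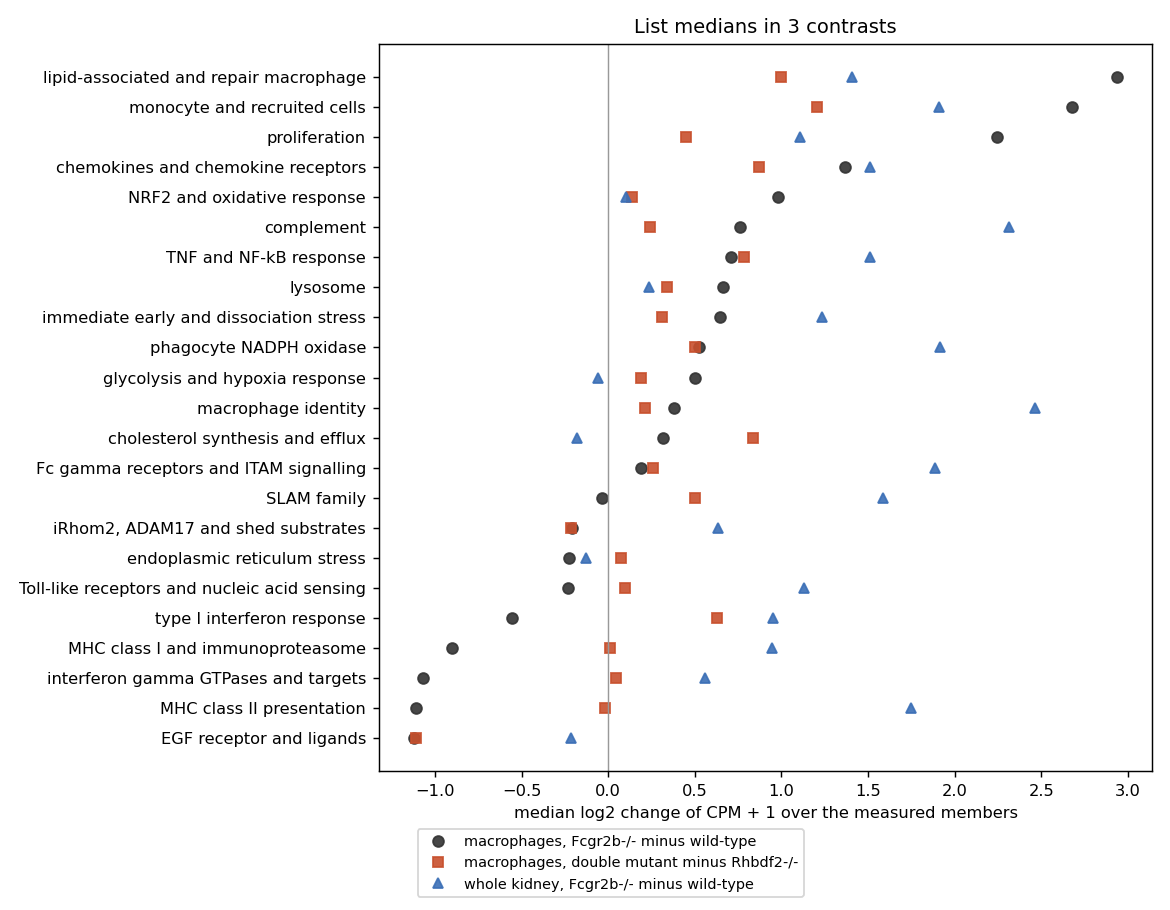
Median log2 change of CPM + 1 over the measured members of each of 23 gene lists (rows) for Fcgr2b-/- against wild-type macrophages (black circles), double mutant against Rhbdf2-/- macrophages (orange squares) and Fcgr2b-/- against wild-type whole kidney (blue triangles). The MHC class II median is -1.11 in macrophages and 1.75 in whole kidney, and the proliferation median is 2.25 for Fcgr2b loss alone and 0.45 on the Rhbdf2-/- background.

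Whole kidneys of the same genotypes, 4 libraries a group, gave values to set beside these. In kidney 3627 genes were higher (29.5%) and 3795 lower (30.8%) of 12315, but the labels put each kidney genotype on a lane of its own, a split that cannot be told apart from genotype, and the tables were normalized separately, so no test was made between them. Of 2368 macrophage rises measured in kidney 1029 were also higher there and 445 lower, and of 2767 macrophage falls 1032 were lower and 618 higher. The interferon and antigen presentation lists had medians of opposite sign: type I interferon -0.55 in macrophages and 0.95 in kidney, MHC class II -1.11 and 1.75, MHC class I -0.90 and 0.95. Members measured were 39 and 35, 14 and 12, and 21 in both. Whole-kidney levels also depend on how many leukocytes the tissue holds. Ptprc, Itgam and Tyrobp rose there by 1.63 ± 0.39, 3.62 ± 0.42 and 2.60 ± 0.42. The part of leukocyte number in the kidney values was not tested. H2-Ab1 rose in kidney by 1.79 ± 0.58 (adjusted p = 0.0148), from 106 to 146 CPM in wild-type to 277 to 629 CPM in Fcgr2b-/- kidneys, while it fell in the sorted macrophages. The lipid-associated list was higher in both (2.94 and 1.41), with Gpnmb 4.24 ± 0.49 and Trem2 3.95 ± 0.36 higher in kidney. Emr1 and Csf1r, which did not pass in sorted cells, rose in kidney by 2.30 ± 0.45 and 0.91 ± 0.21.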

How the data were processed

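RNA from sorted kidney macrophages (3 libraries for each of 4 genotypes) was sequenced by the authors. Per the file headers, gene values were deposited as log2 CPM, together with the authors' p-value, FDR, log2 fold and F score columns. The headers name no prior count and no effective library size, and both were deduced here from the values. The submitters' processing notes name the builds mm10 and GRCm38. For the aligner and annotation, the sources used here name none. The worth of 1 read was taken in each library as the step that brought its low values closest to whole numbers. For this the antilog was used, less the value for 0 reads. With that step 100% of the same low values lay within 0.1 read of a whole number, so this share is no separate check. Rounding to reads gave 30846258 to 34869542 reads in listed genes per library compared.

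CPM was taken as the antilog, and log2(CPM + 1) of all 12 macrophage libraries entered 1 fit of limma (version 3.58.1, R version 4.3.3; trend, 4 groups, no covariate, Benjamini-Hochberg over 10523 genes, adjusted p below 0.05). Whole kidney (16 libraries) was fitted alone. Summed marker levels had an exact permutation test, which cannot go below 0.1. On simulated reads with a dispersion of 0.03, 90% of genes changed by 1 and 100% of those changed by 2 (log2) were recovered for the comparison of Fcgr2b-/- with wild-type macrophages over 10523 genes. Only 100 genes were changed at each size, with the same dispersion for all genes and no carry-over between libraries. In the data 52.8% of genes were called, so these rates do not describe the real comparison. Named genes were the 12 largest rises and falls among called genes without overlap (mean log2 CPM 1 or more), the members of each list with the smallest p, fixed genes of the pathways, and called genes within 5 Mb of Fcgr2b. Exceptions named within a list were picked after their values were seen. Members and lists were chosen with earlier results of these data known. Alternatives were pseudocounts, filters on low values, library scales, weights, the 6 libraries alone, each library left out, and voom on recovered reads, the last chosen after seeing the data. The library kit does not mark strand, so antisense partners cannot be told apart.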

Additional observations from a re-analysis of the deposited data

Results flagged for a closer look

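Each gene here had an effect of Fcgr2b loss that differed between the libraries labelled without and with the Rhbdf2 mutation, by the interaction term of the limma fit at adjusted p below 0.05. The value is the change between double mutant and Rhbdf2-/- macrophages minus the change between Fcgr2b-/- and wild-type macrophages, on the log2(CPM + 1) scale. Genes named for a rise or a fall in the subtracted change lean toward a value of the opposite sign by that choice. A negative value beside a rise means that the rise was smaller, absent or turned into a fall in value on the labelled Rhbdf2-/- background. Rhbdf2 itself was no lower in the double mutant libraries (26.6, 21.6 and 18.1 CPM) than in wild-type libraries (16.2, 21.0 and 25.0 CPM), so its level does not check that label.

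Among lipid-associated, lysosomal and efflux genes the values were negative for Spp1 (-4.48), Trem2 (-2.34), Apoc2 (-3.19), Apoe (-1.60), Igf1 (-1.34) and Cd63 (-1.35), and for Ctsd (-2.22), Ctsl (-2.67), Grn (-1.52) and Abca1 (-2.54). All of these genes had risen with Fcgr2b loss alone.

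In the monocyte list 3 of 23 genes and in the TNF and NF-kB list 4 of 32 had a negative value past the threshold. Negative values among named genes of recruited cells and mediators were those of Fn1 (-4.29), Clec4d (-2.47), Ms4a4a (-3.50), Adam8 (-3.64), Trem1 (-3.96) and Lcn2 (-5.18), and of Cxcl1 (-3.75), Ccl2 (-2.08), Ccl9 (-1.24), Cfp (-1.95), Fosl2 (-2.49), Fcrls (-2.50) and Jag1 (-1.56). Lcn2 was at 2.27, 0.256 and 0.03 CPM in the double mutants, where the Fcgr2b-/- libraries held 41.8, 52.2 and 36.1 CPM.

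Dividing and metabolic genes gave Cdk1 (-2.41), Birc5 (-2.39), Stmn1 (-2.22) and Nuf2 (-2.85), and Pkm (-0.87), Ldha (-0.92), Prdx1 (-1.0) and Ftl1 (-1.18). Cd84 gave -1.06 and the proximal tubule gene Gatm -0.84.

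Positive values, beside a fall with Fcgr2b loss alone, were found for some antigen presentation and interferon genes, with H2-Ob (2.18), H2-Eb1 (1.43), H2-K1 (1.13) and Clec9a (4.02), and Stat2 (1.55), Oas2 (1.79), Mx1 (1.81) and Pyhin1 (1.46). By list a positive value passed for 3 of 14 class II, 6 of 21 class I and none of 20 interferon gamma genes. Clec9a was at 60.7, 46.5 and 68.8 CPM in double mutants, against 30.7, 23.7 and 50.0 CPM in wild-type libraries, ranges that overlap. Markers of other cells were positive too, with Egf (3.68), Calb1 (3.34), Pgam2 (2.82), Cd4 (1.49) and Itga8 (2.27), as were Siglece (1.27) and Igsf9 (2.03). The part of those other cells in the differences was not tested. With wild-type replicate 2 left out the number of such genes over the whole table was 647 in place of 1255.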

How the results depend on the processing

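The 2547 rises and 3004 falls stayed within 1.5 times under every alternative run, at 2097 to 3081 and 2440 to 3743, and the share of rises among calls stayed within 10 percentage points of 45.9%. Leaving out 1 library gave 2143 to 2568 rises and 2440 to 3104 falls. The 303 called members of the 23 gene lists ranged from 271 to 305 and the 47 called genes within 5 Mb of Fcgr2b from 39 to 45 on leaving out 1 library. The 1255 interaction calls moved most: 2399 with sample quality weights, and 647 (without wild-type replicate 2) to 1289 (without Fcgr2b-/- replicate 1) on leaving out 1 library; the cause was not tested. Of 1647 values for 103 named genes under the alternatives, 1611 kept direction and call, 26 lost the call and 8 gained one. Under quantile normalization Fcer1g (-0.0184), Gatm (-0.0103) and the median of the Fc receptor list (-0.0184) changed sign. The SLAM family median, -0.04, became 0.0330 with median-of-ratios scaling and 0.0632 with quality weights, and ran from -0.112 (without wild-type replicate 1) to 0.0878 (without wild-type replicate 3) on leaving out 1 library. The planned negative binomial count tests were not run, because the deposited unit is log2 CPM and not counts; voom on recovered reads gave 2532 rises and 2836 falls. No paired analysis was possible because the labels of the compared groups share no replicate numbers. Depth limits only genes near 3 reads, such as Camk2d in Fcgr2b-/- libraries.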
